A study of Mus musculus with 899 samples.

Results

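The plasma miRNA of C3H mice at day 5 after whole thorax lung irradiation (WTLI) was compared with that of sham irradiated C3H mice bled at the same time. The 48 libraries of this comparison, 32 from irradiated and 16 from sham mice, were chosen by their labels as strain C3H and time point D5 from 899 libraries of 196 mice. The study followed circulating miRNA of C3H and C57Bl/6 mice from before WTLI through the period in which late lung injury develops. Mice were bled before irradiation (PT), at either day 2 or day 5, in most cases again at month 1, and later in a subset (in C3H, only mice with title code G2), so the day 5 mice also have their own earlier sample and the day 2 mice are other animals. The irradiated group were gnotobiotic C3Hf/Sed/Kam mice that received 1 dose of X-rays to the whole thorax under anesthesia. The sham group were mice of the same strain that got no dose. All were young adults, the males slightly younger than the females, and blood was drawn from behind the eye into EDTA. Each of the 4 combinations of title code (G2 or G4) and sex held 8 irradiated and 4 sham mice, and the labels do not say what the codes stand for. Each library came from 1 mouse, so a mouse is the replicate.

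Circulating miRNA are short regulatory RNAs that leave cells in vesicles, in protein complexes or by cell death, and that stay intact in plasma. Their seed, the bases near the 5′ end that pair with target mRNAs, defines families that share targets. The miR-34 family is transcribed under the control of p53, the DNA damage response factor. Several other miRNA are known for the cells that make them: miR-150 for mature lymphocytes, miR-155 for activated lymphocytes and macrophages, miR-142 for all blood-forming cells, and miR-144 with miR-451a for red cell precursors, where both are cut from a shared primary transcript.

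Of the 15 miRNA that passed the test described next, 13 had an entry among the mature mouse sequences of RefSeq (GRCm38.p6). The sequences of the 7 that carry the miR-34, leukocyte and red cell results are given 5′ to 3′, with the seed, bases 2 to 8, in capitals. The 3p strands of miR-34b and miR-34c share a seed that no other mature miRNA of the table has, whereas the 5p strand of miR-34a has another.
miR-34a-5p: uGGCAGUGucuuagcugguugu
miR-34b-3p: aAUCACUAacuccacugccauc
miR-34c-3p: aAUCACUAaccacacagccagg
miR-155-5p: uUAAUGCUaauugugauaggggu
miR-142a-5p: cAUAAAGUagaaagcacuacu
miR-144-5p: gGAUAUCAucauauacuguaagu
miR-144-3p: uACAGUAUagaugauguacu
The mature strand of miR-34a-5p lies at chr4:150068473-150068494 on the plus strand, outside annotated host genes. Those of miR-34b-3p (chr9:51103574-51103595) and miR-34c-3p (chr9:51103044-51103065) lie on the minus strand in an intron of Btg4, which runs the opposite way, and their hairpins are 451 bases apart. The strand of miR-155-5p (chr16:84714143-84714165) lies in an exon of Mir155hg, and that of miR-142a-5p (chr11:87756867-87756887) in an intron of Mir142hg. Mir144, which gives miR-144-5p (chr11:78073010-78073032) and miR-144-3p (chr11:78073047-78073066), ends 99 bases before the hairpin of Mir451a. Mir150 lies outside annotated host genes, from 45121757 to 45121821 on chromosome 7.

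Total miRNA counts of the 48 libraries ranged from 510239 to 3044370 in irradiated mice (median 1435130) and from 916477 to 3748310 in sham mice (median 1750030). The mean of the log2 total count was 0.37 lower in irradiated mice (two-sided permutation test, p = 0.0313, adjusted p = 0.0939 over 3 library measures). The median number of miRNA with a read was 444.5 in irradiated and 496.5 in sham libraries. The most abundant miRNA was miR-16-5p, common in plasma and red cells, in all 48 libraries. It held a median of 49.5% of the reads in irradiated and 45.6% in sham mice (permutation test, p = 0.154, adjusted p = 0.231). The hemolysis index, the log2 ratio of the red cell miR-451a to miR-23a-3p, which red cells do not carry in excess, had a median of 0.44 in irradiated and 0.48 in sham mice (difference of means -0.02, permutation test, p = 0.944, adjusted p = 0.944). With miR-16-5p in place of miR-23a-3p in the index, the difference of means was -0.19 (permutation test, unadjusted p = 0.216). The profiles of 5 libraries, 4 irradiated and 1 sham, correlated under 0.95 with the median profile of the 48.

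At day 5, 15 of 483 miRNA tested were differentially expressed between irradiated and sham mice at an adjusted p under 0.05 (edgeR quasi-likelihood test after Benjamini-Hochberg adjustment). This is 3.11% of those tested: 8 were higher in irradiated mice (1.66%) and 7 lower (1.45%). The 8 higher miRNA were 4 strands of the miR-34 family, both strands of miR-144, miR-139-5p and miR-27b-3p. The 7 lower miRNA were 3 of the leukocyte list (miR-142a-5p, miR-150-5p, miR-155-5p), miR-125a-5p, miR-26a-5p, miR-103-3p and miR-7b-5p. The median log2 fold change over all 483 was 0, and 57 had an unadjusted p under 0.05. Without the 5 libraries that stood apart, 12 were called, 11 of them among the 15, and miR-103-3p, miR-27b-3p, miR-34c-5p and miR-7b-5p no longer passed (edgeR adjusted p from 0.0925 to 0.128). Quantile-normalized values with limma gave 8 higher and 12 lower. Scaling by library size alone, tried after seeing the data, shifted that median to -0.12 and gave 3 higher and 9 lower miRNA in place of 8 and 7, with 10 of the 15 among them. The log2 fold changes of miR-144-5p, miR-144-3p, miR-34c-5p, miR-139-5p and miR-27b-3p then kept their sign but no longer passed.

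**Figure D1:**
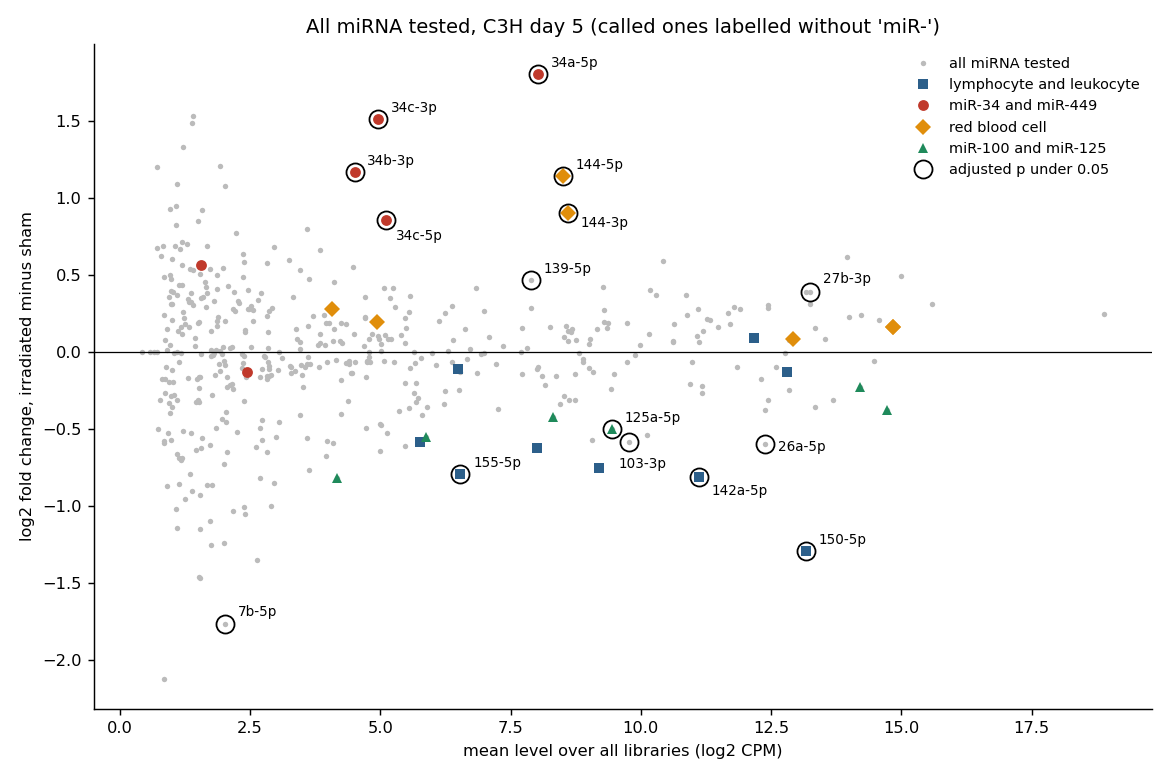
The log2 fold change of irradiated minus sham C3H mice at day 5 is plotted against the mean level (log2 CPM over all libraries) for each of the 483 miRNA tested. Coloured marks are members of 4 lists, black rings are the 15 miRNA with an adjusted p under 0.05, and the 3 named falls of the leukocyte list and the 4 named rises of the miR-34 list stand away from the grey cloud at their levels.

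The strongest rise was that of miR-34a-5p, which represses cell cycle and survival genes. Its level (log2 CPM, the log2 of reads relative to the TMM-scaled library total) ran from 7.68 over a median of 9.04 to 10.16 in irradiated mice and from 6.35 over 7.24 to 8.38 in sham mice. All 32 irradiated mice lay above the sham median and 26 of them above every sham mouse, so the ranges overlapped little. The log2 fold change was 1.80 ± 0.22 (SE), about 3.49-fold (edgeR quasi-likelihood test after Benjamini-Hochberg adjustment, adjusted p = 1.82e-13). The strand miR-34c-3p was less abundant, from 4.13 over 5.71 to 7.33 log2 CPM in irradiated and from 3.30 over 4.25 to 5.47 in sham mice. It lay above every sham mouse in 20 of 32 irradiated mice, with a log2 fold change of 1.51 ± 0.26 (SE, edgeR adjusted p = 1.39e-06). Its partner in seed, miR-34b-3p, ran from 3.84 over 4.81 to 6.56 log2 CPM in irradiated and from 2.46 over 3.88 to 5.42 in sham mice, and 7 irradiated mice lay above all sham mice. Its log2 fold change was 1.17 ± 0.28 (SE, edgeR adjusted p = 0.00345).

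The groups overlapped more for miR-34c-5p, from the other arm of the miR-34c hairpin. It ran from 5.06 over 5.87 to 7.38 log2 CPM in irradiated and from 3.98 over 5.15 to 6.28 in sham mice, with 7 irradiated mice above all sham mice and a log2 fold change of 0.85 ± 0.24 (SE, edgeR adjusted p = 0.0223). Across the 483 miRNA tested, 8 (1.66%) were higher. Of the 9 members of the miR-34 and miR-449 list, 6 were tested, 4 were higher and 0 lower, with a median log2 fold change of 1.01 against 0 over all miRNA tested. The other 2 tested were miR-34b-5p at 0.56 (edgeR adjusted p = 0.869) and miR-449a-5p, which shares the seed of miR-34a-5p, at -0.13 (edgeR adjusted p = 0.963). The summed level of the list ran from 374.8 to 1462 CPM in irradiated mice (median 669.6) and from 135 to 389 CPM in sham mice (median 219.7). Members of this list and of the leukocyte list had been picked from these same libraries, so their counts are not independent evidence of direction.

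The deepest fall among abundant miRNA was that of miR-150-5p, made in mature B and T cells and a repressor of Myb. It ran from 11.03 over 11.89 to 12.84 log2 CPM in irradiated and from 12.67 over 13.24 to 14.02 in sham mice. Of the irradiated mice, 30 of 32 lay below every sham mouse, and 14 of 16 sham mice lay above every irradiated mouse. Its log2 fold change was -1.29 ± 0.15 (SE), a level of 0.408 of that in sham mice (edgeR quasi-likelihood test after Benjamini-Hochberg adjustment, adjusted p = 1.48e-15). For miR-155-5p, which shapes lymphocyte and macrophage activation, levels ran from 3.36 over 5.28 to 6.40 in irradiated and from 5.27 over 6.03 to 6.66 in sham mice. It was below all sham mice in 16 of 32 irradiated mice, and its log2 fold change was -0.79 ± 0.19 (SE, edgeR adjusted p = 0.00357).

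The levels of miR-142a-5p ran from 8.91 over 10.56 to 12.06 log2 CPM in irradiated and from 10.49 over 11.37 to 12.29 in sham mice, with 15 of 32 irradiated mice below all sham mice. Its log2 fold change was -0.81 ± 0.22 (SE, edgeR adjusted p = 0.0116), and that of the other strand of the hairpin, miR-142a-3p, was -0.75 ± 0.25 and did not pass (edgeR adjusted p = 0.0848). Over all 483 miRNA tested, 7 (1.45%) were lower and the median log2 fold change was 0. Of the 12 members of the lymphocyte and leukocyte list, 9 were tested, 3 were lower and 0 higher, with a median log2 fold change of -0.63. Those not called were miR-142a-3p, miR-181a-5p at -0.63 (edgeR adjusted p = 0.121), miR-181b-5p at -0.59 (edgeR adjusted p = 0.374), and miR-146a-5p, miR-146b-5p and miR-342-3p, between -0.13 and 0.09. The summed level of the list had a median of 13958 CPM in irradiated (9465 to 19382) and 22366 CPM in sham mice (15094 to 31575). The myeloid miR-223-3p, abundant in neutrophils and platelets, had a log2 fold change of -0.07 (edgeR adjusted p = 0.963). In bulk plasma, fewer cells of a type and less RNA per cell cannot be told apart.

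Both strands of the red cell precursor miRNA miR-144 were higher in irradiated than in sham mice, but neither call held with library size scaling (edgeR adjusted p = 0.0516 for miR-144-5p and 0.154 for miR-144-3p) or with the mouse as a fixed block (limma adjusted p = 0.75 and 0.418). Of 21 alternatives, miR-144-3p passed under 6 and miR-144-5p under 15. The levels of miR-144-5p ran from 7.37 over 8.83 to 12.22 log2 CPM in irradiated and from 6.66 over 8.03 to 9.53 in sham mice, with 9 irradiated mice above all sham mice and a log2 fold change of 1.14 ± 0.28 (SE, edgeR adjusted p = 0.00411). Those of miR-144-3p ran from 7.64 over 8.68 to 12.38 and from 7.20 over 7.88 to 9.68, and its log2 fold change was 0.90 ± 0.25 (SE, edgeR adjusted p = 0.019). The groups overlapped for most mice, and 5 irradiated mice lay above every sham mouse for miR-144-3p.

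The neighbouring miR-451a, by contrast, ran from 11.93 over 13.28 to 14.87 log2 CPM in irradiated and from 12.45 over 13.09 to 14.84 in sham mice, with a log2 fold change of 0.08 (edgeR adjusted p = 0.963). Among all 483 miRNA tested, 8 (1.66%) were higher. Of the 7 members of the red blood cell list, all tested, 2 were higher and 0 lower, and the 4 strands of miR-486, also abundant in red cells, were between 0.16 and 0.28 (edgeR adjusted p from 0.683 to 0.884). The part of red cell RNA in the miR-144 values was not tested, and the hemolysis index is given above. The summed level of the list had a median of 82529 CPM in irradiated (44031 to 235261) and 68637 CPM in sham mice (51159 to 215373).

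**Figure D2:**
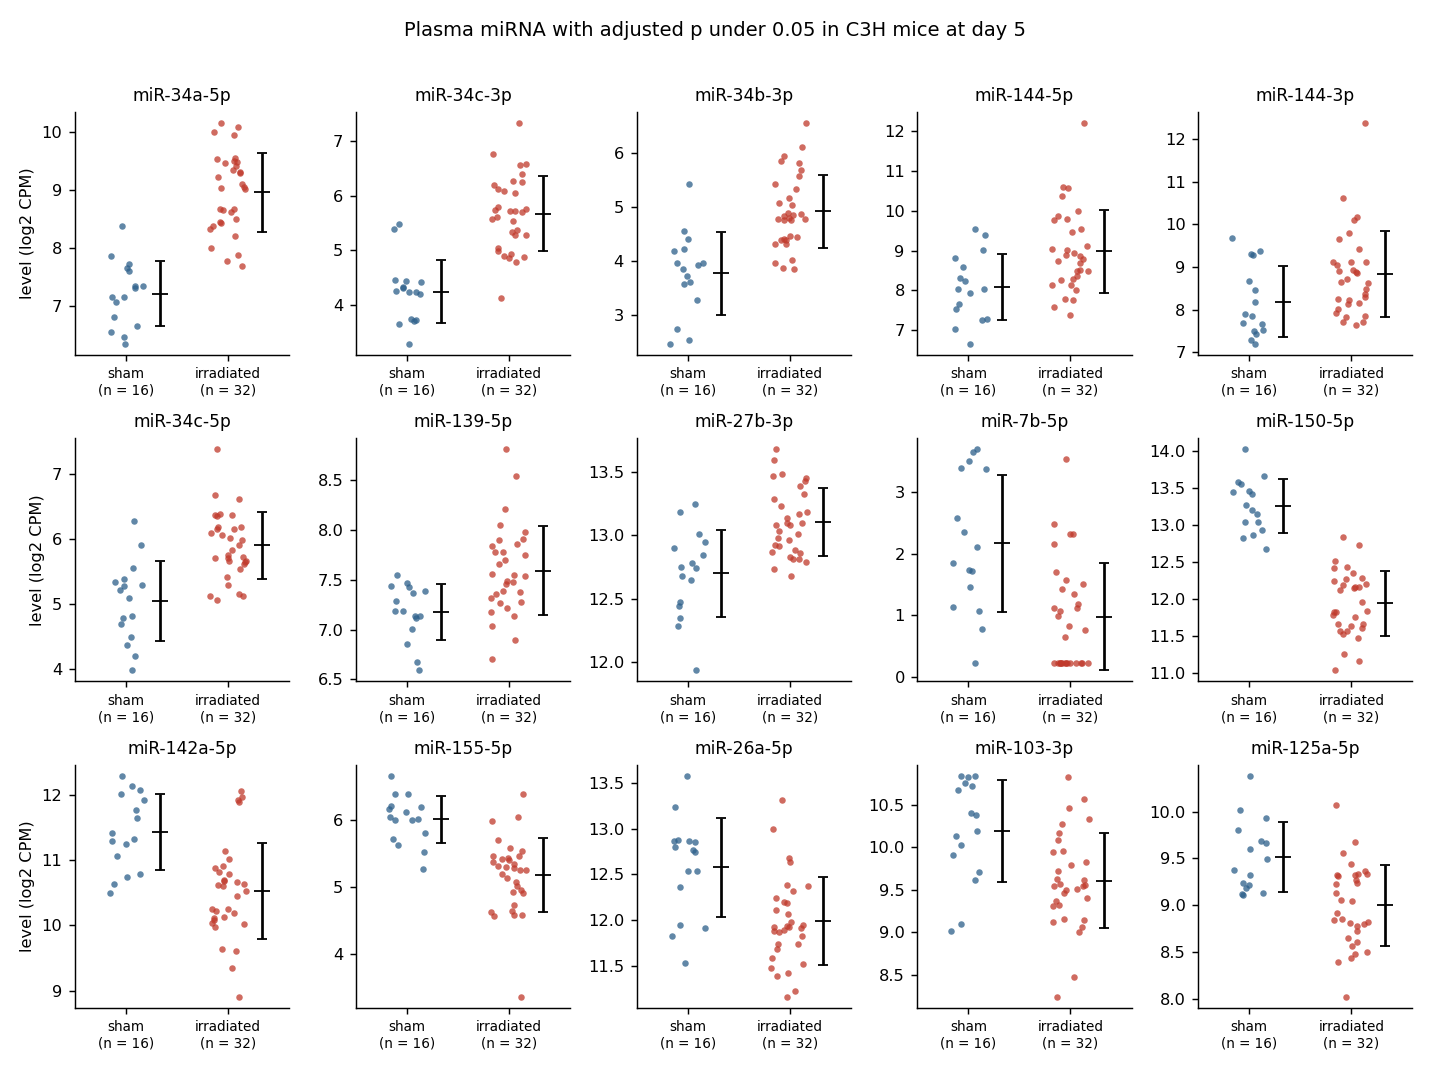
Each panel shows 1 of the 15 miRNA, with a point for each C3H mouse at day 5 (level in log2 CPM) and a black bar for the mean ± SD of the group. The points of miR-34a-5p and miR-150-5p barely overlap between groups, and those of miR-7b-5p gather at the floor of 0.23 log2 CPM, which is a count of 0.

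The remaining rises were small. For miR-139-5p, which lies in an intron of Pde2a, levels ran from 6.70 over 7.54 to 8.81 log2 CPM in irradiated and from 6.59 over 7.19 to 7.54 in sham mice. It was above all sham mice in 16 of 32 irradiated mice, with a log2 fold change of 0.47 ± 0.12 (SE, edgeR adjusted p = 0.0082). For miR-27b-3p, widely expressed, they ran from 12.68 over 13.08 to 13.68 and from 11.94 over 12.75 to 13.25, with a log2 fold change of 0.39 ± 0.11 (SE, edgeR adjusted p = 0.019). It differs at 1 base from miR-27a-3p, to which reads could also be assigned and which had 0.24 ± 0.13 (SE, edgeR adjusted p = 0.438).

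Of the other falls, miR-125a-5p, common in blood stem cells, ran from 8.03 over 8.98 to 10.07 log2 CPM in irradiated and from 9.11 over 9.43 to 10.38 in sham mice, with 18 of 32 irradiated mice below all sham mice. Its log2 fold change was -0.50 ± 0.15 (SE, edgeR adjusted p = 0.0244). It was the 1 call among the 6 members of the miR-100 and miR-125 list, which had a median log2 fold change of -0.46, and 0 of which had a positive value. The other 5 were between -0.82 (miR-100-5p, edgeR adjusted p = 0.311) and -0.23 (miR-125b-5p, edgeR adjusted p = 0.614). Of all 483 miRNA tested, 7 were called lower (1.45%) and 241 had a positive value. The widely expressed miR-26a-5p ran from 11.16 over 11.93 to 13.32 log2 CPM in irradiated and from 11.53 over 12.76 to 13.58 in sham mice (log2 fold change -0.60 ± 0.18, SE, edgeR adjusted p = 0.0296), and 6 irradiated mice lay below all sham mice. Its close relative miR-26b-5p, with 2 base differences, had -0.31 ± 0.17 (SE, edgeR adjusted p = 0.438).

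The miRNA miR-103-3p, made from introns of Pank2 and Pank3 and often taken as a reference in plasma, ran from 8.24 over 9.55 to 10.82 log2 CPM in irradiated and from 9.01 over 10.28 to 10.84 in sham mice. The log2 fold change came to -0.59 ± 0.18 (SE, edgeR adjusted p = 0.0434), and 3 irradiated mice lay below all sham mice. The last of the 7 falls, miR-7b-5p, an endocrine and neural miRNA, rested on few reads. Its count was 0 in 14 of 32 irradiated and in 1 of 16 sham mice, with medians of 1 and 4.5 reads and highest counts of 25 and 30. Its fitted log2 fold change of -1.77 ± 0.53 (SE, edgeR adjusted p = 0.0308) depends on how counts near 0 are treated. The near copy miR-7a-5p, with 2 base differences and more reads, had -0.14 ± 0.23 (SE, edgeR adjusted p = 0.953).

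Lists of miRNA typical of other tissues held 0 calls at day 5 apart from miR-7b-5p of the pancreas list and miR-103-3p of the plasma reference list. Over all 483 miRNA tested, 15 (3.11%) were called and 241 had a value above 0. The lead member of a list is the one with the smallest p and need not show the direction of the rest. For the liver list (7 tested, 3 above 0) the median log2 fold change was -0.01. Its lead member miR-194-5p had -0.65 (edgeR adjusted p = 0.147), while the hepatocyte miR-122-5p had -0.38 (edgeR adjusted p = 0.737). The 10 epithelial members had a median of 0.24, with 9 above 0, led by the skin miRNA miR-203-3p at 0.59 (edgeR adjusted p = 0.243). The fibrosis list of 5 (median 0.10, 3 above 0) was led by miR-21a-5p, a miRNA of injured and fibrotic tissue, at 0.31 (edgeR adjusted p = 0.104). The 12 members of the miR-17 and miR-106a clusters (median 0.08, 9 above 0) were led by miR-363-3p at -1.03 (edgeR adjusted p = 0.433). That miRNA rested on few reads, with a count of 0 in 12 of 32 irradiated and 1 of 16 sham libraries. In the pancreas list the islet and gut miR-375-3p had 0.40 (edgeR adjusted p = 0.296) and the acinar miR-216a-5p -0.08 (edgeR adjusted p = 0.967). The endothelial miR-126a-5p had 0.23 (edgeR adjusted p = 0.513), the myeloid miR-223-5p 0.30 (edgeR adjusted p = 0.438), the stromal miR-199b-5p -0.59 (edgeR adjusted p = 0.438), the cardiac miR-208a-3p 0.48 (edgeR adjusted p = 0.949), and the neural miR-219a-2-3p 0.95 (edgeR adjusted p = 0.677). The values of miR-208a-3p and miR-219a-2-3p lie at the floor. Counts were 0 in 22 of 32 irradiated and 12 of 16 sham libraries for miR-208a-3p. For miR-219a-2-3p they were 0 in 16 of 32 and 12 of 16. Other miRNA named for C3H plasma were also not called at day 5: miR-18b-5p at 0.00, miR-106a-5p at 0.08, and, by the same edgeR test, miR-335-5p and miR-202-5p.

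The sample that each mouse gave before WTLI gave the change in relative level (log2 CPM) of each group. From that sample to day 5, miR-34a-5p changed by 2.90 ± 0.70 log2 CPM (SD, n = 32) in irradiated mice, upward in 32 of 32, and by 0.95 ± 0.82 (SD, n = 16) in sham mice, upward in 14 of 16. The other 3 miR-34 strands also moved upward in both groups. The change of miR-34c-5p was 2.72 ± 1.25 in irradiated and 1.72 ± 1.12 in sham mice, that of miR-34c-3p 2.04 ± 0.92 and 0.57 ± 0.57, and that of miR-34b-3p 1.98 ± 1.14 and 1.21 ± 1.37. The mean of each of the 4 strands was thus above the earlier one in both groups, and the difference of change between groups passed for miR-34a-5p and miR-34c-3p but not for the other two, as given with the mouse block. For miR-150-5p the change was -1.64 ± 0.53 in irradiated mice, downward in 32 of 32, against -0.30 ± 0.49 in sham mice. That of miR-155-5p was -1.32 ± 1.14 and -0.47 ± 0.85, downward in 29 of 32 irradiated and 11 of 16 sham mice.

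For other calls the mean change was larger in the sham mice. The change of miR-144-3p was -1.28 ± 0.60 in sham mice (SD, n = 16), downward in 16 of 16, and -0.57 ± 1.01 in irradiated mice (SD, n = 32), downward in 23 of 32. By these means the higher level in irradiated mice at day 5 went with a smaller decline, though 9 of 32 irradiated mice rose. The difference of change between the groups did not pass for miR-144-3p, as given with the mouse block. For miR-144-5p the changes were -0.75 ± 1.02 in sham and -0.20 ± 1.18 in irradiated mice. The level of miR-139-5p moved downward in 15 of 16 sham mice (-0.56 ± 0.51) and was near the earlier one in irradiated mice (0.04 ± 0.59, upward in 15 and downward in 17). In the same way miR-125a-5p moved upward in 14 of 16 sham mice (0.43 ± 0.51) and little in irradiated mice (-0.14 ± 0.56). Over the 15 miRNA, the mean change was larger in irradiated mice for 8 and larger in sham mice for 7.

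With the mouse as a fixed replicate block, the change from the own earlier sample differed between irradiated and sham mice for 5 miRNA by limma-voom with Benjamini-Hochberg adjustment. Of the 15, 4 were among them, with differences of change of 1.962 ± 0.23 for miR-34a-5p (limma adjusted p = 2.2e-09), -1.39 ± 0.17 for miR-150-5p (limma adjusted p = 5.85e-09), 1.37 ± 0.28 for miR-34c-3p (limma adjusted p = 0.00154) and -0.82 ± 0.21 for miR-142a-5p (limma adjusted p = 0.0278). The value of miR-7b-5p was -1.94 ± 0.54 and narrowly missed the threshold (limma adjusted p = 0.0514). Those of miR-144-3p, 0.68 ± 0.27 (limma adjusted p = 0.418), and of miR-144-5p, 0.56 ± 0.33 (limma adjusted p = 0.75), did not pass. Nor did those of miR-34b-3p, 0.66 ± 0.42 (limma adjusted p = 0.801), miR-34c-5p, 0.88 ± 0.37 (limma adjusted p = 0.454), miR-155-5p, -0.90 ± 0.30 (limma adjusted p = 0.242), miR-139-5p, 0.54 ± 0.19 (limma adjusted p = 0.253), and miR-125a-5p, -0.59 ± 0.18 (limma adjusted p = 0.119). For miR-26a-5p, miR-103-3p and miR-27b-3p the limma adjusted p was 0.418, 0.622 and 0.649. The 1 call outside the 15, named after its value was seen, was the lymphocyte miR-181a-5p.

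**Figure D3:**
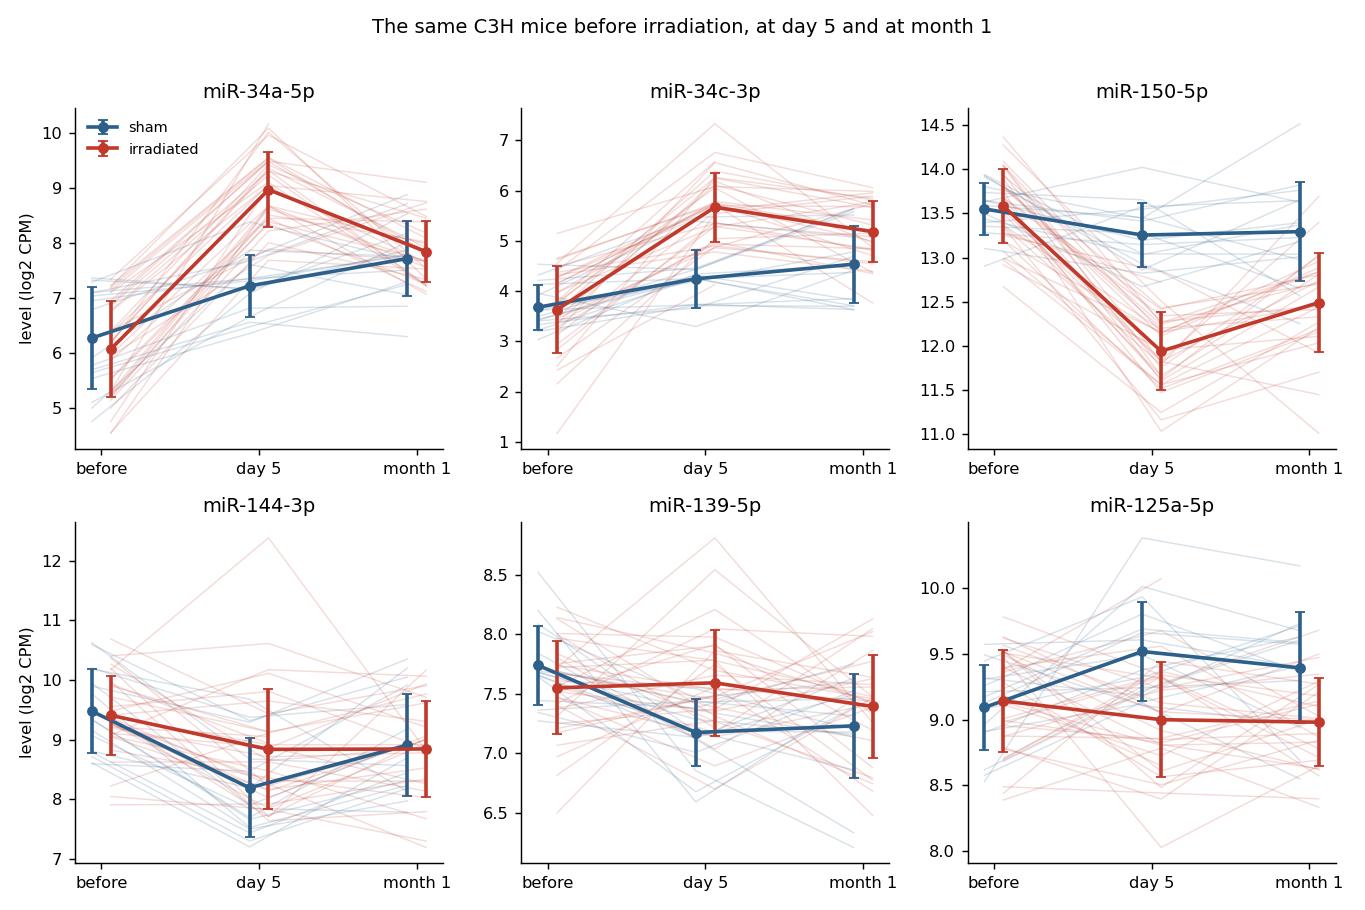
Levels (log2 CPM) of 6 miRNA are drawn for the same C3H mice before irradiation, at day 5 and at month 1. Thin lines are single mice and thick lines the mean ± SD of the sham and irradiated groups, and irradiated and sham means of miR-34a-5p stand apart at day 5 but not at month 1, while those of miR-150-5p stand apart at both.

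Before irradiation, 0 of 483 miRNA (0%) differed between the 32 mice later irradiated and the 16 later sham irradiated by the edgeR quasi-likelihood test after Benjamini-Hochberg adjustment, with 31 at an unadjusted p under 0.05. Of these 31, 25 were lower and 6 higher in the mice later irradiated. DESeq2, limma-voom and limma on quantile-normalized values also gave 0. The count was not 0 under every setting: it was 4 at a mean CPM of at least 100 and larger with no filter on low counts, as given at the end. The earlier differences of the 15 miRNA lay between -0.22 (miR-34a-5p) and 0.36 (miR-34b-3p), and 8 of 15 had the sign of day 5.

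Day 2 plasma came from other C3H mice, 32 irradiated and 16 sham, and held 24 differentially expressed miRNA (4.97%), 7 of the 15 among them. The effects of 0 of 483 miRNA (0%) differed between day 5 and day 2 by the edgeR quasi-likelihood test after Benjamini-Hochberg adjustment, with 19 at an unadjusted p under 0.05. DESeq2 called 1, miR-34a-5p, and both limma fits 0. Of the 15, 14 had the same sign at both days. The nearest to a difference was miR-34a-5p, with a log2 fold change of 0.71 ± 0.21 at day 2 and 1.80 ± 0.22 at day 5 (difference 1.09 ± 0.28, edgeR adjusted p = 0.0692). The 3p strands of its family went the other way in value, with 1.92 (miR-34c-3p) and 1.61 (miR-34b-3p) at day 2. For miR-144-3p the effect was -0.25 ± 0.24 at day 2 and 0.90 ± 0.25 at day 5 (difference 1.15 ± 0.35, edgeR adjusted p = 0.225). The effect of miR-155-5p was -1.51 ± 0.19 at day 2 against -0.79 ± 0.19 at day 5 (difference 0.72 ± 0.28, edgeR adjusted p = 0.76).

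At month 1, with 58 irradiated and 32 sham C3H mice that include most of the day 5 mice, 16 miRNA were called (3.31%), 4 of the 15 among them. All 15 kept the sign of day 5 with a smaller value. As they were picked for passing at day 5, that choice favours smaller values elsewhere, and the count is not evidence of a decline. The 4 were miR-150-5p at -0.62 ± 0.11 (edgeR adjusted p = 8.16e-07), miR-34c-3p at 0.64 ± 0.18, miR-103-3p at -0.48 ± 0.13 and miR-27b-3p at 0.28 ± 0.08 (edgeR adjusted p = 0.0177 for each of the last 3). The test between day 5 and month 1 took all libraries as independent and did not model the mice bled at both times. By this edgeR quasi-likelihood test after Benjamini-Hochberg adjustment, the effect differed between day 5 and month 1 for 6 miRNA (1.24%). Of the 15, these were miR-34a-5p, at 1.80 and 0.28 ± 0.15 (difference 1.52 ± 0.25, edgeR adjusted p = 1.64e-06), and miR-150-5p (difference -0.67 ± 0.18, edgeR adjusted p = 0.0225). The other 4, miR-18b-5p, miR-106a-5p and miR-20b-5p of the miR-106a cluster and the hepatocyte miR-122-5p, were not called at day 5 and had month 1 log2 fold changes of 1.46, 1.12, 0.89 and 1.33. In the day 5 mice that were bled again at month 1 (29 irradiated, 16 sham), miR-34a-5p stood 1.79 ± 0.94 (SD) above the earliest sample in irradiated and 1.44 ± 0.96 in sham mice. For miR-150-5p the values were -1.09 ± 0.67 and -0.26 ± 0.65.

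**Figure D4:**
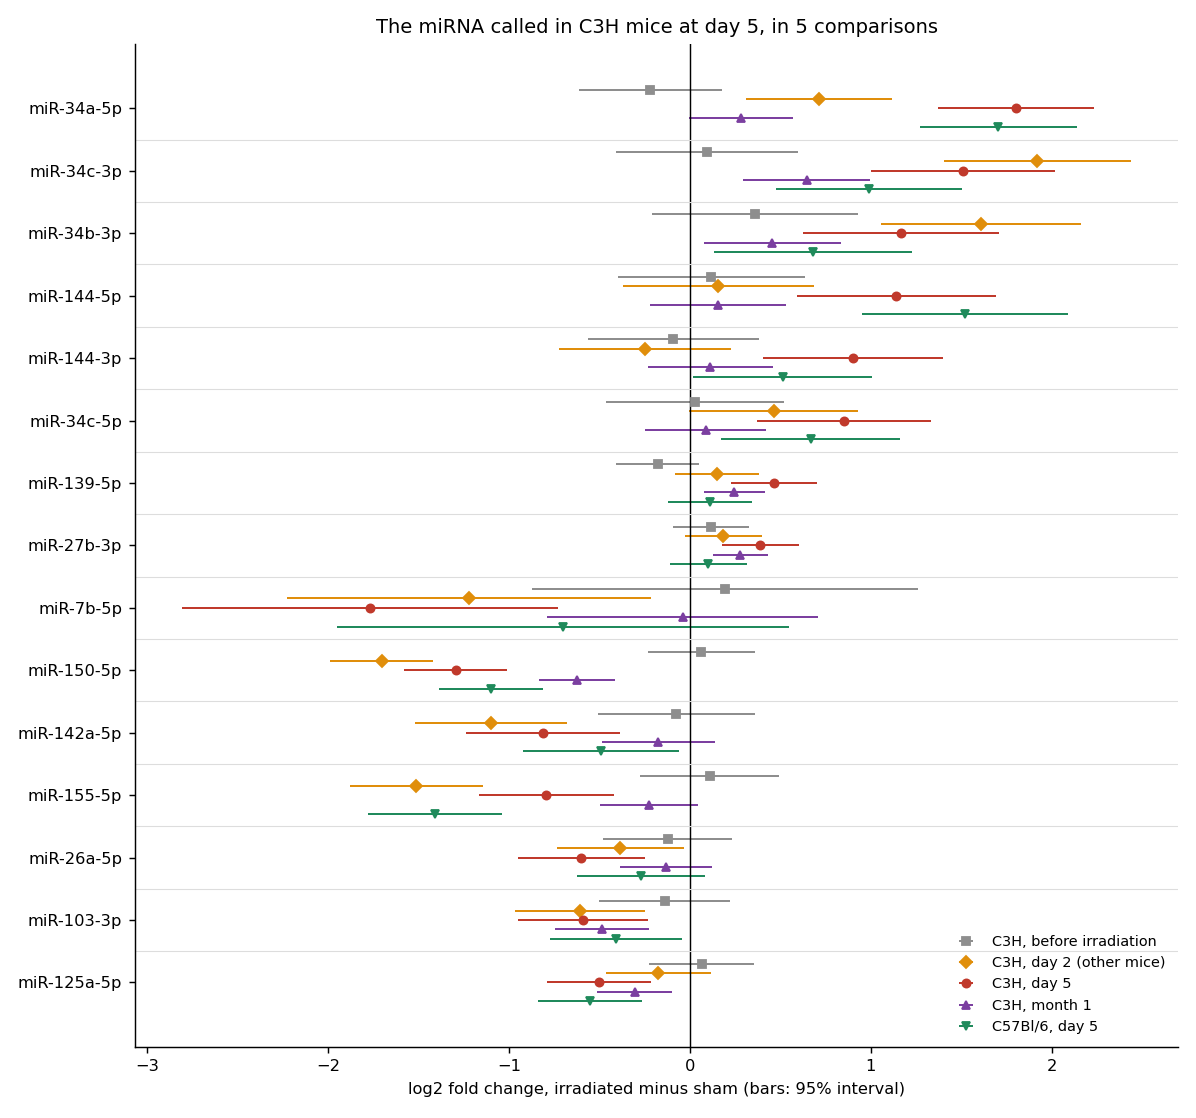
Log2 fold changes of irradiated minus sham mice, with 95% intervals, are shown for the 15 miRNA in C3H mice before irradiation, at day 2, day 5 and month 1, and in C57Bl/6 mice at day 5. All 15 month 1 values lie nearer 0 than those of day 5, which the choice of the 15 at day 5 favours. The value of miR-144-5p stands away from 0 at day 5 in both strains but not at day 2.

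C57Bl/6 mice at day 5 (32 irradiated, 16 sham) had 68 differentially expressed miRNA (14.1%). They included 6 of the 15: miR-34a-5p, miR-34c-3p, miR-155-5p, miR-144-5p, miR-125a-5p and miR-150-5p. All 15 had the same sign in both strains, and for 12 the C57Bl/6 value was nearer 0, which the choice of the 15 in C3H mice favours. The effect differed between the strains for 9 of 483 miRNA (1.86%) by the edgeR quasi-likelihood test after Benjamini-Hochberg adjustment, 0 of the 15 among them. For miR-34a-5p the difference, C3H minus C57Bl/6, was 0.10 ± 0.29 (edgeR adjusted p = 0.959), for miR-150-5p -0.20 ± 0.21 (edgeR unadjusted p = 0.358) and for miR-144-5p -0.38 ± 0.38 (edgeR adjusted p = 0.778). The 9 that differed were not called in C3H mice at day 5. With limma-voom or quantile-normalized values the count was 0, with 42 and 51 at an unadjusted p under 0.05.

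Among the 9, which were named after their values were seen, the values farther from 0 were often those of C57Bl/6 mice. The log2 fold change of let-7a-5p was -1.50 ± 0.23, that of the neutrophil miR-223-3p -1.12 ± 0.17 and that of miR-140-3p -0.58 ± 0.10 in C57Bl/6 mice (edgeR adjusted p of 1.37e-08, 1.37e-08 and 1.91e-06). The islet and gut miR-375-3p was at 1.22 ± 0.18 in C57Bl/6 (edgeR adjusted p = 2.34e-09) and 0.40 ± 0.17 in C3H mice. The difference of miR-142a-3p, 0.79 ± 0.37, did not pass (edgeR adjusted p = 0.329), with -1.54 ± 0.25 in C57Bl/6 and -0.75 ± 0.25 in C3H mice.

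Between C3H females and males at day 5 the effect differed for 0 of 483 miRNA (0%) by the edgeR quasi-likelihood test after Benjamini-Hochberg adjustment, with 15 at an unadjusted p under 0.05. DESeq2 and both limma fits also gave 0. In that model 6 miRNA (1.24%) were called in females, 3 of the 15 among them, and 8 (1.66%) in males, 6 of the 15 among them. The log2 fold change of miR-34a-5p was 2.02 in females and 1.62 in males, and that of miR-150-5p -1.44 and -1.14. For miR-27b-3p the values were 0.20 and 0.60 (difference -0.40 ± 0.21, edgeR adjusted p = 1). Outside the 15, miR-375-3p was at 0.06 in females and 0.90 in males (difference -0.83 ± 0.31, edgeR adjusted p = 0.831).

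Between the title codes the effect also differed for 0 of 483 miRNA (0%), with 21 at an unadjusted p under 0.05, by the edgeR quasi-likelihood test and 0 by DESeq2 and both limma fits. The counts within a code were unlike, 13 (2.69%) in G2 and 4 (0.828%) in G4, with 10 and 3 of the 15. Within the 4 strata of code and sex, the log2 fold change of miR-34a-5p was between 1.52 and 2.18, that of miR-34c-3p between 1.22 and 1.97, that of miR-150-5p between -1.82 and -1.10, that of miR-155-5p between -0.91 and -0.65 and that of miR-144-5p between 1.04 and 1.22. Several calls had values farther from 0 in both sexes of G2 than in G4. The effect of miR-142a-5p was -1.70 and -1.25 in G2 females and males but -0.14 and -0.36 in G4, that of miR-26a-5p -1.12 and -0.95 but 0.06 and -0.36, that of miR-103-3p -0.78 and -1.09 but 0.03 and -0.47, that of miR-139-5p 0.56 and 0.95 but 0.03 and 0.28, and that of miR-125a-5p -0.76 and -0.75 but -0.38 and -0.13. Leaving out G2 females left 5 calls in place of 15 and leaving out G2 males 7, both with miR-150-5p, miR-34a-5p, miR-34c-3p, miR-144-5p and miR-155-5p among them. The largest of these code differences, -1.21 ± 0.42 for miR-142a-5p, did not pass after adjustment (edgeR unadjusted p = 0.0041, adjusted p = 0.921).

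**Figure D5:**
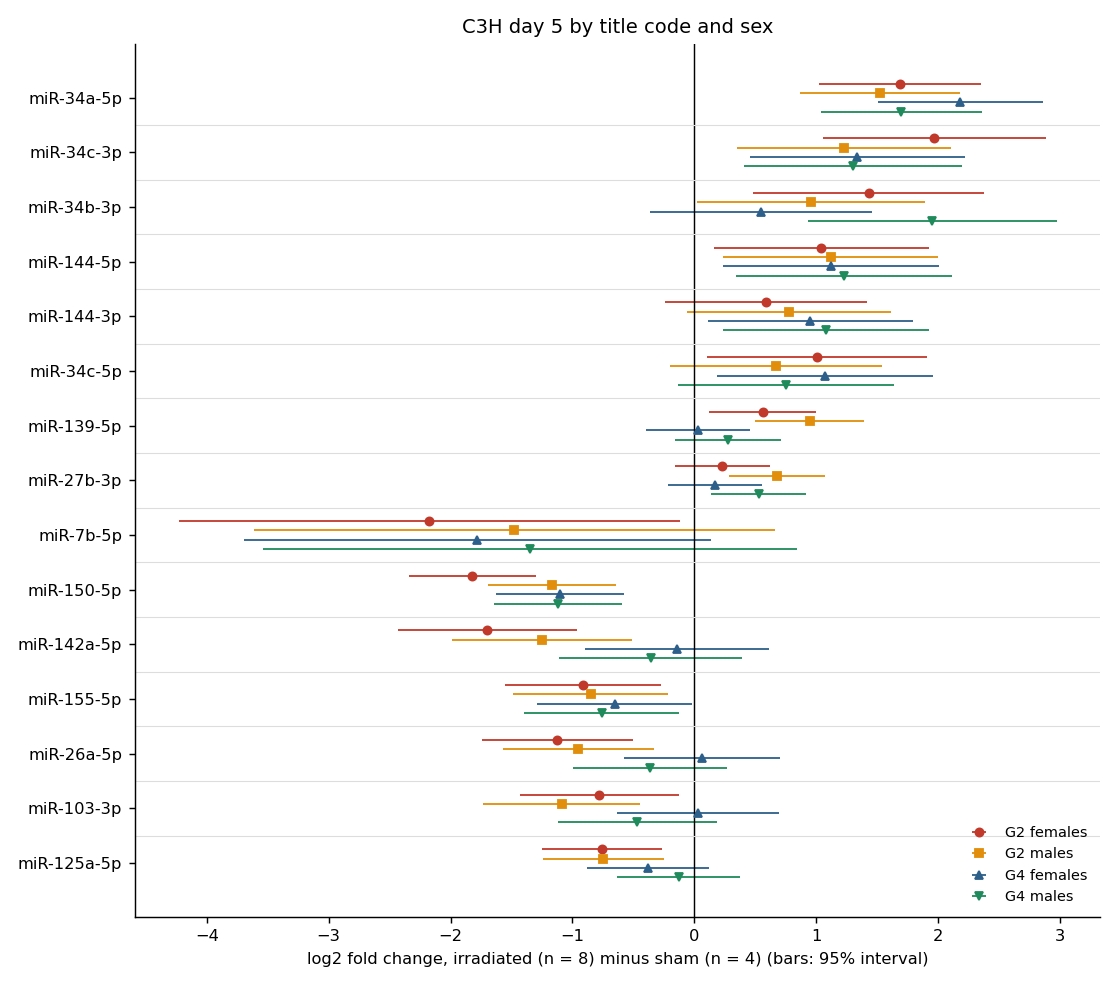
Log2 fold changes of irradiated (n = 8) minus sham (n = 4) C3H mice at day 5, with 95% intervals, are shown in each combination of title code and sex. The values of miR-34a-5p, miR-34c-3p and miR-150-5p stand on the same side of 0 in all 4, whereas those of miR-142a-5p, miR-26a-5p, miR-103-3p and miR-139-5p are nearer 0 in G4 than in G2.

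Only G2 mice were sampled beyond month 1. Of the 16 irradiated G2 mice with a day 5 sample, 7 also have a month 4 sample and 9 do not, and the labels do not say why. The day 5 level differed by whether a month 4 sample exists for 0 of the 15 miRNA after Benjamini-Hochberg adjustment (exact two-sided permutation test), and 4 had an unadjusted p under 0.05. The smallest was that of miR-34c-3p, at 6.50 ± 0.44 log2 CPM (SD, n = 7) with and 5.73 ± 0.55 (SD, n = 9) without a later sample (exact permutation test, p = 0.00804, adjusted p = 0.0643). The level of miR-34a-5p was 8.16 ± 0.38 and 8.70 ± 0.61 (exact permutation test, n = 7 and 9, p = 0.0341, adjusted p = 0.134), the opposite way. By whether a month 3 sample exists (13 of 16), 0 of 15 passed and 2 had an unadjusted p under 0.05. The smallest p was that of miR-34a-5p, at 8.28 ± 0.34 log2 CPM (SD, n = 13) with and 9.28 ± 0.78 (SD, n = 3) without that sample (exact permutation test, p = 0.00357, adjusted p = 0.0536). A split of 13 and 3 mice allows no smaller p. A single miRNA could thus not pass after adjustment over 15, so the 0 decides nothing.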

How the data were processed

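Plasma small RNA libraries were made and sequenced by the authors, who excluded hemolysed plasma and runs with few miRNA reads, aligned trimmed reads to the mouse (mm10) in Illumina BaseSpace and deposited counts of reads per mature miRNA (1915 rows) without normalization. Reads of near-identical miRNA can be split between them, and the sources used here do not say whether molecular identifiers were used. Strain, treatment, sex, code, mouse and time point were read from sample titles, and 0 columns lacked a sample.

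The counts were analysed in R 4.3.3 with edgeR 4.0.16 (TMM, filterByExpr by group, quasi-likelihood test), as 1 model of 32 group means over all 899 libraries (867 residual degrees of freedom), with Benjamini-Hochberg adjustment over the 483 miRNA kept, which hold 99.99% of reads. Models with groups split by sex, title code or PT subset served the contrasts that need them. An adjusted p under 0.05 was called. Levels are log2 CPM with a prior count of 2. Intervals are 95%. The limma 3.58.1 and DESeq2 1.42.0 packages served as alternatives, including log2 RPM (pseudocount 1) with quantile normalization, the normalization in the authors' methods. Permutation tests used SciPy 1.17.1 with 100000 resamples for the 48 libraries, or all regroupings of the 16 G2 mice.

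Samples of the same mouse were weakly alike. Deviations from the treatment means before irradiation and at day 5 had a mean correlation of 0.199 over 123 abundant miRNA for the same mouse and -0.00 for other mice, positive in 36 of 48 pairs. Pairs of the same mouse also share title code and sex, which were not taken out, so the 0.199 need not come from the mouse. The correlation within a mouse fitted by limma over all libraries was 0.043. Samples of 1 number come from 1 animal, so the mouse was used as a block in alternatives of the day 5 comparison, and of no other. No 2 libraries had identical counts (0 found).

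On simulated counts for the day 5 contrast (483 miRNA, 200 changed), the test recovered 64% of changes of 1 log2 unit and 87% of changes of 2, with 8 false calls among 283 unchanged miRNA. The simulation changed many more miRNA than the 15 called in the real libraries, which makes the Benjamini-Hochberg adjustment less strict. It also used 1 mean per miRNA, with no other differences between groups, codes or mice. These shares therefore do not give the recovery in the real libraries.

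Named miRNA are those called at day 5, the member of each list with the smallest p, and those the paper names for C3H plasma. Other members of lists are given where a list is described, and the miRNA whose effect differs between times or strains were named after their values were seen. The samples, lists and tests were chosen with earlier results of these data known. Positions come from RefSeq (GRCm38.p6) and GENCODE vM21.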

Additional observations from a re-analysis of the deposited data

Results flagged for a closer look

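The effect of WTLI differed between day 5 and month 1 in C3H mice for 6 miRNA by edgeR's test of the difference, which did not model the mice bled at both times. The difference of log2 fold changes, day 5 minus month 1, was 1.52 for miR-34a-5p, -0.67 for miR-150-5p, -1.45 for miR-18b-5p, -1.04 for miR-106a-5p, -0.99 for miR-20b-5p and -1.71 for miR-122-5p. The last 4 had day 5 effects that did not pass and month 1 effects that did.

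The day 5 effect differed between C3H and C57Bl/6 mice for 9 miRNA by the same edgeR test, with differences, C3H minus C57Bl/6, of 1.06 for miR-223-3p, 1.40 for let-7a-5p, 0.63 for miR-140-3p, 0.59 for miR-24-3p and 0.71 for miR-423-5p, and of -0.82 for miR-375-3p, -1.28 for miR-215-3p, -0.97 for miR-215-5p and -4.71 for miR-3066-5p. The last had few reads in C3H mice, with median counts of 2 in irradiated (6 of 32 libraries at 0) and 4 in sham mice (2 of 16 at 0). Mean C3H levels were 1.51 log2 CPM in irradiated and 1.72 in sham mice, and the C57Bl/6 counts are not given here. The fitted value of miR-3066-5p depends on how counts near 0 are treated.

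Single mice stood apart in the groups of irradiated G2 mice formed by later sampling, where the gap to the next mouse was a large part of the range. Among the 7 mice with a month 4 sample the highest level was 8.81 log2 CPM for miR-139-5p and 10.4 for miR-144-5p, and among the 9 without it 10.2 for miR-34a-5p. With 30 groups examined, chance alone flags about 1 in 20.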

How the results depend on the processing

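The count of 15 miRNA at day 5 stayed between 12 and 20 with DESeq2 size factors, library size alone, the robust fit, both limma fits, a mean CPM of at least 100, the mouse as a random replicate block (16), without G4 females or G4 males, with G2 alone, and without the 5 libraries that stood apart. It was 33 with no filter on low counts, 31 with DESeq2, 25 when fitted on the 48 samples alone and 39 when those had a block for code and sex. With the mouse as a fixed replicate block it was 5, a fit that tests the change from the own earlier sample. With fewer mice it was 5 without G2 females, 7 without G2 males, 3 in G4 alone, 6 in females alone and 2 in males alone. The 3 in G4 were miR-150-5p, miR-34a-5p and miR-194-1-3p, and the 2 in males miR-150-5p and miR-34a-5p, named after their values were seen. Both passed under 21 of 21 alternatives, miR-34c-3p under 18 of 20, miR-27b-3p under 8 of 21 and miR-144-3p under 6 of 21. None of the 15 reversed (0 of the called values).

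Before irradiation, the count of 0 became 40 with no filter and 4 at a mean CPM of at least 100 (miR-145a-5p, miR-17-5p, miR-30b-5p and miR-30c-5p). Between day 5 and day 2 it became 16 with no filter, 3 at a mean CPM of at least 100 (miR-34a-5p, miR-144-3p and miR-375-3p) and 1 with DESeq2 (miR-34a-5p). Between day 5 and month 1 the 6 became 33 with no filter and 3 at the higher CPM. Between strains the 9 became 26 with no filter, 17 at the higher CPM, and 0 with limma-voom and with quantile-normalized values (42 and 51 at an unadjusted p under 0.05). The causes were not tested. Sex and title code gave 0 in each of the alternatives run.

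Depth limits miRNA with few reads, such as miR-7b-5p. The labels say only that samples of a group are separate mice.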
